A study of Mus musculus with 4 samples.

Results

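The receptors described here were 10 members of the TNF receptor superfamily that T cells are known to use: *Tnfrsf1a*, *Tnfrsf1b*, *Tnfrsf4*, *Tnfrsf9*, *Tnfrsf18*, *Tnfrsf25*, *Tnfrsf14*, *Tnfrsf10b*, *Cd27* and *Fas*. They were taken by name from the 25239 genes of a count table, and all 10 were found in it. The table holds bulk RNA-seq of NKT cells, lymphocytes whose T cell receptor binds lipids on CD1d, from the small intestinal lamina propria (SI-LP) of untreated WT mice, labelled C57BL/6Jax and, by the methods, young adults of both sexes. The methods sorted the cells as TCRβ+ CD1d-tetramer+ cells that were negative for a death dye, B220, CD11b, CD11c and CD8, from mice injected with an anti-ARTC2 nanobody shortly before tissue harvest. The 4 libraries made up 1 condition and came from 2 experiments, which the labels name first (replicates 3 and 4) and second (replicates 1 and 2). NKT cells of lymphoid tissues, with which the study compared these cells, were not analysed here. The values below therefore describe levels in the SI-LP NKT cell libraries and their spread.

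Receptors of this superfamily are membrane proteins that bind trimeric ligands of the TNF superfamily. Costimulatory members such as CD27, OX40 (*Tnfrsf4*), 4-1BB (*Tnfrsf9*), GITR (*Tnfrsf18*), HVEM (*Tnfrsf14*) and TNFR2 (*Tnfrsf1b*) recruit TRAF adaptors and activate NF-κB, which supports the survival and cytokine production of T cells. Members with a cytoplasmic death domain, namely TNFR1 (*Tnfrsf1a*), DR3 (*Tnfrsf25*), the TRAIL receptor DR5 (*Tnfrsf10b*) and *Fas*, recruit adaptors such as TRADD or FADD and can activate NF-κB or, through caspase-8, cell death.

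The libraries had between 3882803 and 8732858 counts on genes, so that a floor of 3 counts lay between 0.287 CPM (counts relative to library size, corrected by TMM factors) in replicate 2 and 0.753 CPM in replicate 4. All 7 T cell markers (*Cd3e* and others) were above 3 counts in the 4 libraries, and *Cd8a* and *Cd8b1* together took at most 0.000149% of the counts, CD8+ cells having been left out of the sort. The libraries stood apart in markers of other cells. The 21 epithelial markers (*Epcam* and others), 16 of them above 3 counts in every library, took 0.0943% and 1.004% of the counts in the second experiment (replicates 1 and 2) and 0.0150% and 2.94% in the first (replicates 3 and 4). The 95% Wilson interval was 0.0140% to 0.0160% for the lowest of these shares and 2.93% to 2.96% for the highest, which is far narrower than the spread between libraries. The highest share rests largely on 1 marker, *Lyz1*, with 2171, 3534, 47 and 84299 counts in replicates 1 to 4. The T cell markers took 0.247% in replicate 1, 0.114% in replicate 2, 0.263% in replicate 3 and 0.124% in replicate 4. The 6 plasma cell markers, 4 of them above 3 counts in every library, took 0.666% and 0.849% in the second experiment, and 0.0235% and 0.0492% in the first. The shares of the second experiment rest largely on *Jchain*, with 44022, 66662, 11 and 780 counts in replicates 1 to 4. *Prdm1* had 156, 128, 152 and 106 CPM and overlapped between the experiments. *Sdc1*, *Xbp1*, *Mzb1* and *Tnfrsf17* were higher in both libraries of the second. The ribosomal RNA precursor *Rn45s* took from 7.36% to 28.1%. In bulk RNA, fewer cells of a type and less RNA per cell cannot be told apart.

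In the gene positions deposited with the counts (GRCm38), 6 of the 10 members lay on chromosome 4. *Tnfrsf4* (chromosome 4, 156013695 to 156016589, plus strand) and *Tnfrsf18* (156026322 to 156028894, plus strand) were the closest of them, 9732 bases apart with 1 annotated gene (*Gm10560*) between them. *Tnfrsf1b* (145212368 to 145246870, minus strand), *Tnfrsf9* (150920155 to 150946102, plus strand), *Tnfrsf25* (152115934 to 152120119, plus strand) and *Tnfrsf14* (154922210 to 154928077, minus strand) were the others. *Cd27* (125232622 to 125237027, minus strand) and *Tnfrsf1a* (125349723 to 125362483, plus strand) lay on chromosome 6, *Tnfrsf10b* on chromosome 14 (69767472 to 69784411, plus strand) and *Fas* on chromosome 19 (34290659 to 34327770, plus strand). Exons of the members overlapped exons of no other annotated gene, apart from 11 bases (0.7% of its length) of *Cd27* shared with *Mir8113*.

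Start regions are shown for 4 members that the results below single out, and no link between sequence and level was tested. *Tnfrsf18* and *Tnfrsf4* are neighbours with very different counts, *Tnfrsf1b* varied widely between libraries, and *Tnfrsf1a* kept a narrow ratio to *Tnfrsf18*. Each sequence is a RefSeq window (GRCm38.p6) from 250 bases before to 50 bases after the transcription start, on the gene's own strand. Capitals mark matches to the outer letters of the NF-κB consensus, GGG and CC with any 5 bases between them, on either strand (in reverse GG and CCC, also 5 bases apart).
Tnfrsf18, chr4:156026072-156026371, plus strand: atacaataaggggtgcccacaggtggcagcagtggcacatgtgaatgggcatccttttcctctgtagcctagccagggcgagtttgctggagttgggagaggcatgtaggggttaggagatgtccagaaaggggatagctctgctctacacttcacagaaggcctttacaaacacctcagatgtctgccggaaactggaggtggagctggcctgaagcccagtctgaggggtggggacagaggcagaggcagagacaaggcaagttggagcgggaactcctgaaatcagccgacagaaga
Tnfrsf4, chr4:156013445-156013744, plus strand: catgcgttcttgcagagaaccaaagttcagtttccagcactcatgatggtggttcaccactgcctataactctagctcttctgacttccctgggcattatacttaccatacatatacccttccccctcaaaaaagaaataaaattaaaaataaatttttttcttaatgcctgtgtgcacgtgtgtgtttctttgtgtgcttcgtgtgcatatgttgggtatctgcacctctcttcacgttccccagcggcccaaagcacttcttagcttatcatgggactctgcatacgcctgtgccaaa
Tnfrsf1b, chr4:145246821-145247120, minus strand: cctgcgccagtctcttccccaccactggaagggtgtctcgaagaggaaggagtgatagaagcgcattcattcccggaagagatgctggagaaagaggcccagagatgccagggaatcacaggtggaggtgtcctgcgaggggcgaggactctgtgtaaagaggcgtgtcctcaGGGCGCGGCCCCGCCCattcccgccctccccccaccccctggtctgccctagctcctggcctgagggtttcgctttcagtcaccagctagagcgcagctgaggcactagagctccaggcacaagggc
Tnfrsf1a, chr6:125349473-125349772, plus strand: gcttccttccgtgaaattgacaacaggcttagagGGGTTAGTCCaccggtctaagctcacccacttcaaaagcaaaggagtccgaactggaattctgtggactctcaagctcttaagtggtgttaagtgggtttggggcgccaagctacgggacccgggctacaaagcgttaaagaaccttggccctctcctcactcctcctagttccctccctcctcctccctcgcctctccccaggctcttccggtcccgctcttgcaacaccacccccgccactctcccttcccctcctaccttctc
Windows were found for 9 of the 10 members (11 windows), and 9 of the 11 start at the deposited gene start. The pattern matched 8 of the 11 member windows and 51.0% of all 32544 windows. It had 3 overlapping matches in the *Tnfrsf1b* window, 1 in that of *Tnfrsf1a* and 0 in those of *Tnfrsf18* and *Tnfrsf4*. TGANTCA, the AP-1 consensus, was in 2 of 11 member windows (*Fas* and an internal start of *Tnfrsf9*) and 7.79% of all, TGTGGT, a RUNX core, in 2 of 11 and 16.7% of all, and TATAAA in 0 of 11 and 13.6% of all, each searched on both strands. GC content was 55.3% for *Tnfrsf18*, 43.7% for *Tnfrsf4*, 62.7% for *Tnfrsf1b* and 57.0% for *Tnfrsf1a*, with a median of 53.0% over all windows. The *Tnfrsf1b* and *Tnfrsf1a* windows held 13 and 11 CpG dinucleotides and those of *Tnfrsf18* and *Tnfrsf4* held 4 and 6, where the median window holds 7. A match to such letters describes the sequence and is not evidence of binding.

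All 10 receptors gave counts in at least 2 of the SI-LP NKT cell libraries, but at very different levels. These libraries also held the RNA of other cells noted above, so a count cannot be given to NKT cells alone. *Tnfrsf18*, *Tnfrsf1b*, *Tnfrsf1a* and *Cd27* stood above percentile 90 of expressed genes, *Tnfrsf9*, *Tnfrsf14*, *Tnfrsf10b*, *Tnfrsf25* and *Fas* between percentiles 44.3 and 70.1, and *Tnfrsf4* near the floor. Levels of different genes were compared as TPM, which divides counts by the length of the gene's exons, and each gene was placed by its mean TPM among the 11689 genes that reached 10 counts in 2 or more libraries. Of the 10 members, 9 passed this filter (*Tnfrsf4* did not). Of these 9, 7 were above 3 counts in all 4 libraries, which is near the 77.3% of all genes that passed. The median percentile of the members was 70.0, where that of all genes is 50, with medians of 81.6, 69.8, 73.1 and 53.7 within replicates 1 to 4 (SD 11.7). In all, 4 of 10 were at or above percentile 75, and these were the 4 named first. With replicates 1 and 3 alone, the libraries with the smaller epithelial share in each experiment, 9 of 10 were above 3 counts, 6 of 10 reached percentile 75 and the median percentile was 78.4.

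**Figure D1:**
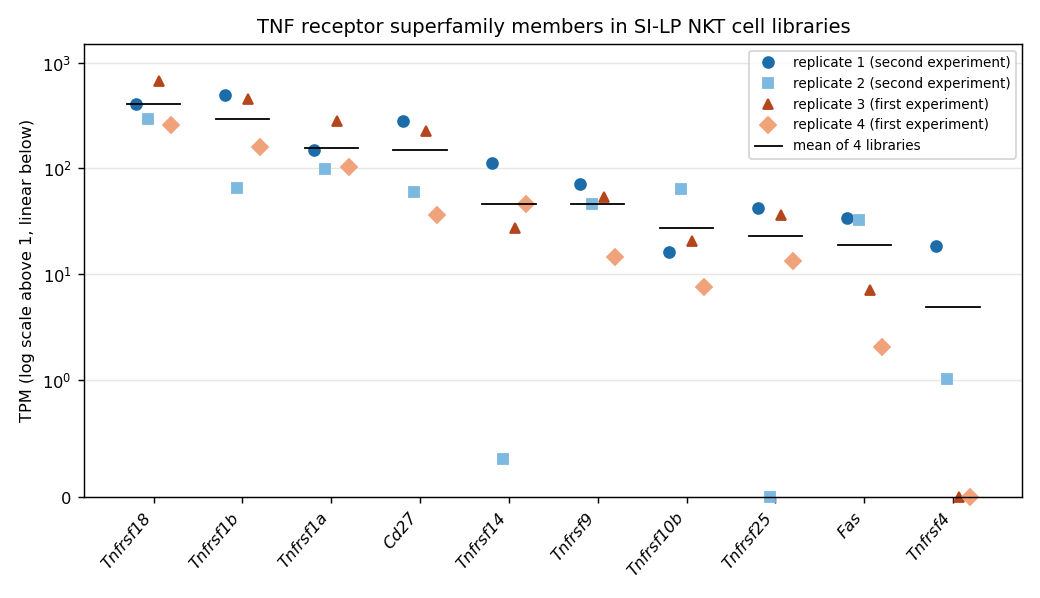
Level of the 10 receptors in TPM (vertical axis, logarithmic above 1 and linear below) in each of the 4 SI-LP NKT cell libraries (points) with the mean of the 4 (line), ordered by mean. *Tnfrsf18* lies between 259 and 672 TPM in every library, whereas *Tnfrsf4* is at 0 in replicates 3 and 4 and *Tnfrsf25* is at 0 in replicate 2.

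Of the costimulatory members, *Tnfrsf18*, which encodes the receptor GITR, had the highest mean level per length. It had 407, 291, 672 and 259 TPM in replicates 1 to 4 (mean 407 ± 188, SD, n = 4, percentile 97.2). It was highest in replicate 3, ranked first of the 10 members in replicates 2, 3 and 4 and second in replicate 1, and the experiments overlapped. On the CPM scale, which compares 1 gene between libraries, it had 139, 97.4, 282 and 108 CPM, and the ratio of its highest to its lowest library (with a prior count of 2), 2.88, was the smallest of the 10.
*Tnfrsf4*, the neighbouring gene of OX40, had 51, 4, 0 and 0 counts in replicates 1 to 4, or 18.4, 1.02, 0 and 0 TPM. It was well above the floor in replicate 1 alone. The 4 counts of replicate 2 equal 0.383 CPM, with an exact 95% Poisson interval from 0.104 to 0.981 CPM, and the floor of 3 counts that 0 counts allow is 0.670 CPM in replicate 3 and 0.753 CPM in replicate 4. The exact 95% interval of these 0 counts reaches 0.823 and 0.926 CPM. A difference between replicates 2, 3 and 4 was thus not detectable at this depth. Such intervals and floors cover counting error only, since reads copied by PCR are not independent molecules.

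*Tnfrsf1b*, which encodes TNFR2, the receptor that binds membrane-bound TNF best, had 498, 65.8, 454 and 160 TPM (mean 294 ± 214, percentile 96.1). It was high in replicates 1 and 3 and lowest in replicate 2, and the experiments overlapped. Its lowest and highest CPM differed 8.61-fold.
*Cd27*, whose product supports the survival of primed T cells, had 278, 59.3, 224 and 35.9 TPM (mean 149 ± 120, percentile 91.4). It too was high in replicates 1 and 3 and low in replicates 2 and 4, so the experiments overlapped. *Tnfrsf9*, which encodes the activation-induced receptor 4-1BB, had 70.8, 45.9, 53.6 and 14.5 TPM (mean 46.2 ± 23.6, percentile 69.9). Replicate 4 was lowest, the other libraries lay within 45.9 to 70.8 TPM, and the experiments overlapped. *Tnfrsf14*, which encodes HVEM, the receptor of LIGHT, BTLA and CD160, had 113, 0.330, 27.1 and 45.9 TPM (mean 46.5 ± 48.0, percentile 70.1). It had 1 count in replicate 2 (0.0958 CPM, 95% interval 0.00242 to 0.534) against 44 to 242 counts in the other libraries, so its mean rests on replicates 1, 3 and 4, and the experiments overlapped.

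Among the death domain members, *Tnfrsf1a*, which encodes TNFR1, had the highest level, with 148, 98.3, 280 and 103 TPM (mean 157 ± 84.5, percentile 91.9). It was highest in replicate 3, and the experiments overlapped. *Tnfrsf10b*, the TRAIL receptor, had 16.1, 64.1, 20.6 and 7.62 TPM (mean 27.1 ± 25.3, percentile 54.7). It was the only one of the 10 with its highest level in replicate 2, and the experiments overlapped. The epithelial share was 1.004% in that library and 2.94% in replicate 4, where *Tnfrsf10b* was lowest. The share of replicate 4 rests largely on *Lyz1*, with 84299 counts there and 3534 in replicate 2. Of the other epithelial markers, *Epcam* was higher in replicate 2 (661 CPM, and 441 in replicate 4). *Krt8* was higher in replicate 4 (370 CPM, and 303 in replicate 2). The part of epithelial RNA in the *Tnfrsf10b* values was not tested. *Tnfrsf25*, which encodes DR3, the receptor of TL1A, had 42.6, 0, 36.1 and 13.4 TPM (mean 23.0 ± 19.8, percentile 49.8). Its 0 counts in replicate 2 allow up to 0.287 CPM, against 10.3 to 27.9 CPM in the other libraries, so that the second experiment held both its lowest and its highest TPM. *Fas*, the receptor of FAS ligand, had 148, 198, 23 and 6 counts, or 34.2, 32.4, 7.01 and 2.07 TPM (mean 18.9 ± 16.7, percentile 44.3). Both libraries of the second experiment were above both of the first. This was so for 1 of the 9 members that passed the filter and for 14.7% of all genes tested, while the opposite held for 0 of 9 and 14.4%. *Tnfrsf4*, which did not pass, showed the order of *Fas* on the few counts given above.

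Because the summed TPM of the members itself ranged from 641 in replicate 4 to 1774 in replicate 3, their composition was compared within each library. *Tnfrsf18*, *Tnfrsf1b*, *Tnfrsf1a* and *Cd27* made up 81.9%, 78.2%, 91.9% and 87.0% of it (mean 84.7% ± 5.98, SD, n = 4). The costimulatory members together held 85.2%, 70.4%, 80.7% and 80.3% and the death domain members the rest, 14.8% to 29.6%. Replicate 2 had the highest death domain share, with *Tnfrsf10b* at 9.75% of the total against 0.990% to 1.19% in the other libraries and *Tnfrsf1b* at 9.997% against 24.9% to 30.7%. *Tnfrsf18* alone held 36.9% ± 8.33 (SD, n = 4), with the lowest share in replicate 1 and the highest, 44.2%, in replicate 2.

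**Figure D2:**
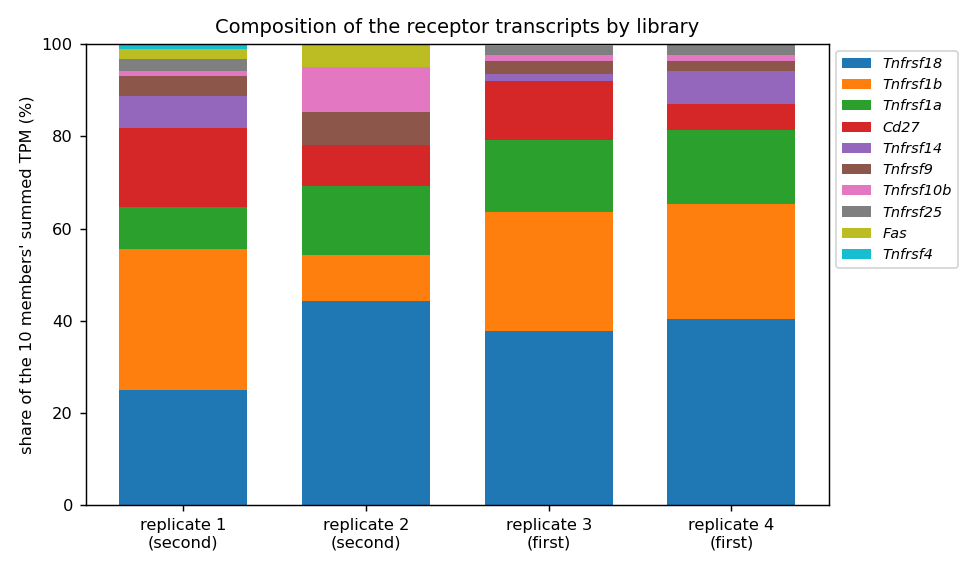
Share of each receptor in the summed TPM of the 10 members (vertical axis, percent) in each library (bars), with the experiment of the library named below it. In every library *Tnfrsf18*, *Tnfrsf1b*, *Tnfrsf1a* and *Cd27* fill between 78.2% and 91.9% of the bar.

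The order of neighbouring members by mean TPM was mostly not separated by the spread between libraries. *Tnfrsf18* was above *Tnfrsf1b* in 3 of 4 libraries, with a mean log2 ratio of 0.78 ± 1.01 (SD, n = 4), *Tnfrsf1b* above *Tnfrsf1a* in 3 of 4 (0.62 ± 0.95) and *Tnfrsf1a* above *Cd27* in 3 of 4 (0.42 ± 1.02). *Cd27* was above *Tnfrsf14* in 3 of 4 libraries, *Tnfrsf14* above *Tnfrsf9* in 2 of 4, *Tnfrsf9* above *Tnfrsf10b* in 3 of 4, *Tnfrsf10b* above *Tnfrsf25* in 1 of 4 and *Tnfrsf25* above *Fas* in 3 of 4. *Fas* was above *Tnfrsf4* in 4 of 4. The first place of *Tnfrsf18* rests on the length correction, since its exons (1030 bases) are shorter than those of *Tnfrsf1b* (4913 bases). Without it, the ratio of *Tnfrsf18* to *Tnfrsf1b* was 0.171, 0.927, 0.311 and 0.340 in replicates 1 to 4, below 1 in each. Among these 9 neighbouring pairs, *Fas* and *Tnfrsf4* were the only pair with the same order by TPM in every library.

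TNF receptors 1 and 2 share the ligand TNF, so their transcripts were compared within each library, where library size cancels. The ratio of *Tnfrsf1b* to *Tnfrsf1a* per length was 3.37, 0.669, 1.62 and 1.55 in replicates 1 to 4, with a geometric mean of 1.54. *Tnfrsf1b* was the higher of the pair in 3 of 4 libraries and the lower in replicate 2, so the spread between libraries did not separate them. The ratio of *Tnfrsf18* to its neighbour *Tnfrsf4* was 22.1 in replicate 1 (95% interval of counting 16.7 to 29.9) and 285 in replicate 2 (111 to 1048, on 4 counts of *Tnfrsf4*). It was at least 471-fold in replicate 3 and at least 160-fold in replicate 4, where *Tnfrsf4* had 0 counts and the floor of 3 counts per library was used in its place. With the exact 95% interval of counting in place of this floor, these bounds are 383 and 130. *Tnfrsf18* was thus the higher in 4 of 4 libraries, with a geometric mean of 148 with these bounds and 278 without replicate 1. *Tnfrsf18* also exceeded *Tnfrsf9* in 4 of 4 libraries, by 5.74-, 6.34-, 12.5- and 17.8-fold.

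A pair singled out after the values were seen was *Tnfrsf18* and *Tnfrsf1a*, on chromosomes 4 and 6. The ratio of *Tnfrsf18* to *Tnfrsf1a* per length was 2.75, 2.96, 2.41 and 2.51 in replicates 1 to 4, while *Tnfrsf18* varied 2.88-fold and *Tnfrsf1a* 3.54-fold in CPM between the libraries. The SD of its log2 ratio was 0.13. Over the 15 pairs among the 6 members with at least 10 counts in every library, the next lowest SD was 0.78, the median 1.01 and the highest 2.30. Of 8088 other genes with at least 10 counts in every library, 13 (0.161%) had a smaller SD of their log2 ratio to *Tnfrsf18* than *Tnfrsf1a*, and the median over these genes was 0.95. This is a description of 4 libraries with no test, since the pair was chosen for this pattern.

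The only contrast that the labels allow, the second experiment minus the first, is a difference between experiments of 1 condition and not a treatment effect. It is judged against the spread between the libraries of each experiment. In the quasi-likelihood test of edgeR, adjusted after Benjamini and Hochberg over all genes, 0 of the 9 members tested had an adjusted p under 0.05, where 0% of the 11689 genes did. At an unadjusted p under 0.05 the counts were 0 of 9 members and 248 genes (2.12%), and DESeq2 called 0 members and 41 genes. The largest difference was that of *Fas*, with a log2 fold change of 2.56 (standard error 1.43, unadjusted p = 0.120, adjusted p = 0.9997 by edgeR). *Tnfrsf10b* followed with 1.20 (standard error 1.08), and *Tnfrsf1a* and *Tnfrsf18* had -0.94 (standard error 0.69) and -0.72 (standard error 0.66). The log2 fold changes of *Tnfrsf9*, *Tnfrsf14*, *Cd27*, *Tnfrsf1b* and *Tnfrsf25* lay between -0.50 and 0.47, with standard errors from 0.95 to 2.20. The biological coefficient of variation over all genes was 0.976, so that these tests bound the members' differences only loosely. Without replicate 3 or replicate 4, 7 and 6 genes were called and 0 of them were members.

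Large differences also lay within each experiment, here between single libraries and so not on the same footing as those between experiments. For *Fas* the difference between experiments (2.56) was larger than those within the first (-1.59) and the second (-0.11). Replicate 4 was lower than replicate 3 by more than 1 on the log2 CPM scale for 8 of the 10 members (19.3% of all genes tested), and replicate 2 was lower than replicate 1 by more than 1 for 5 of 10 (25% of genes). *Cd27* differed by -2.64 between replicates 4 and 3 and by -2.25 between replicates 2 and 1, *Tnfrsf1b* by -1.52 and -2.95, and *Tnfrsf25* by -1.41 and -6.48. These were the 3 of 10 members that were lower by more than 1 in both experiments, where 8.08% of all genes tested were, and 0 of 10 were higher by more than 1 in both, where 19% of genes were. The median difference of the members was -1.43 in the first experiment and -1.46 in the second, against 0.08 and 0.13 for all genes tested. *Tnfrsf18* differed by -1.38 and -0.52 and *Tnfrsf1a* by -1.44 and -0.62. *Tnfrsf10b* went in opposite directions, with -1.41 in the first experiment and 1.94 in the second, as did *Tnfrsf14* with 0.74 and -6.40.
T cell and epithelial markers moved along the same split, whereas the median of the 6 plasma cell markers differed by 1.75 and -0.06. The median of the 7 T cell markers differed by -1.65 and -1.03 and that of the 21 epithelial markers by 5.85 and 3.43. Scaling the libraries to the T cell markers adds 1.75 and 1.25 to the difference of every gene and so moves the median of all genes to 1.83 and 1.39. By that shift, 0 of 10 members and 0.8% of genes were lower by more than 1 in both experiments, and 0 of 10 members and 49.0% of genes were higher. *Tnfrsf18* then differed by 0.37 and 0.74, *Tnfrsf1a* by 0.31 and 0.63, and *Cd27* by -0.88 and -1.001. With the same scaling *Tnfrsf1b* was at 0.24 in the first experiment and at -1.70 in the second. The part of the share of T cells in these differences was not tested. Over the members, the median ratio of the highest to the lowest library was 7.60, where that of all genes was 4.80, and it was 3.10 without replicate 2 and 4.30 without replicate 4.

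**Figure D3:**
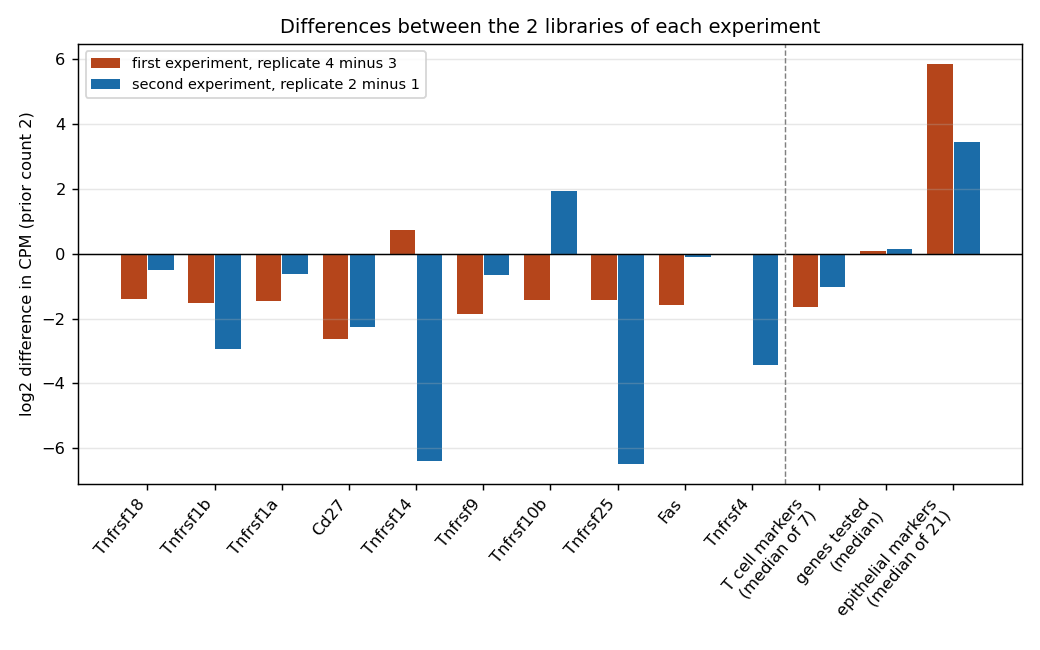
Difference in log2 CPM (vertical axis, prior count of 2) between the libraries of each experiment, replicate 4 minus 3 in the first and replicate 2 minus 1 in the second, for the 10 receptors and, right of the dashed line, the medians of the T cell markers, of all genes tested and of the epithelial markers. *Cd27* differs by -2.64 and -2.25 and the T cell markers by -1.65 and -1.03, whereas the epithelial markers differ by 5.85 and 3.43 and *Tnfrsf4* has 0 counts in both libraries of the first experiment.

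Of 18 other receptors of the superfamily, 4 were above 3 counts in all 4 libraries, 6 were at or below 3 counts in every library and 4 of these (*Tnfrsf8*, *Ngfr*, *Edar* and *Eda2r*) had 0 counts throughout. Their median percentile was 12.2, and 1 of 18 (*Tnfrsf12a*) reached percentile 75, where 4 of the 10 receptors above did. *Cd40*, the receptor of CD40 ligand on B cells and myeloid cells, had 1, 0, 0 and 0 counts. The 4 detected in every library were *Ltbr*, the lymphotoxin β receptor, *Relt*, *Tnfrsf11a*, which encodes RANK, and *Tnfrsf13b*, which encodes TACI, a receptor known from B cells and plasma cells. In the test between experiments 0 of the 11 that passed the filter had an adjusted p under 0.05, and 1 (*Tnfrsf13c*, the BAFF receptor) had an unadjusted p under 0.05.
Several of these receptors moved with the markers of other cells. *Tnfrsf12a*, the TWEAK receptor, had 29, 593, 0 and 196 counts and *Tnfrsf21*, which encodes DR6, had 0, 143, 0 and 33. Both were high in replicates 2 and 4, the libraries with epithelial shares of 1.004% and 2.94%. *Tnfrsf11a*, with 9, 344, 5 and 154 counts, was high in the same libraries. Myeloid markers were also highest there, at 0.00668%, 0.00925%, 0.00226% and 0.0162% of the counts in replicates 1 to 4. So was *Kit*, listed as a mast cell and innate lymphoid marker, with 6, 657, 9 and 109 counts. The shares of stromal and of innate lymphoid markers did not follow this order. Which cells gave these receptor counts was not tested. *Tnfrsf26* and *Tnfrsf22*, the latter a decoy receptor of TRAIL in mice, had 195, 3, 90 and 44 counts and 129, 5, 39 and 2 counts, and were highest in replicates 1 and 3. Exons of *Tnfrsf12a* overlap those of *Hcfc1r1* on the other strand over 8.3% of their length, and counting took no account of strand. *Tnfrsf17*, which encodes the plasma cell receptor BCMA and was itself one of the 6 plasma cell markers, had 31, 250, 0 and 4 counts, and *Tnfrsf13c* had 239, 349, 2 and 6. Both were higher in the second experiment, where the plasma cell markers took 0.666% and 0.849% of the counts. *Tnfrsf13b* did not follow this split, with 98.5, 16.7, 22.1 and 1.76 CPM in replicates 1 to 4, and so was higher in replicate 3 than in replicate 2. *Cd79a*, known from B cells and their descendants, had 269, 288, 0 and 0 counts, and the part of these cells in the receptor values was not tested. Among regulatory T cell markers, *Foxp3* had 4, 31, 2 and 0 counts, whereas *Ctla4* had 1771, 1524, 185 and 109. The rest of that list, *Ikzf2* (454, 167, 341 and 136 CPM) and *Il2ra* (291, 121, 280 and 86.3 CPM), overlapped between the experiments.

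**Figure D4:**
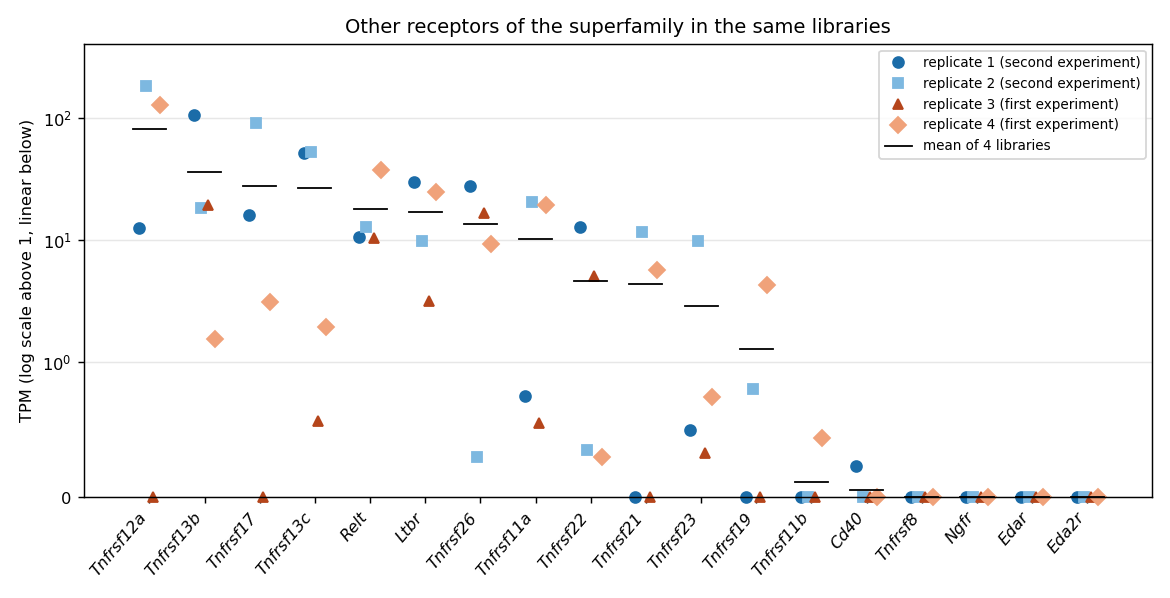
Level in TPM (vertical axis, logarithmic above 1 and linear below) of 18 other receptors of the superfamily in each library (points) with the mean of the 4 (line). *Tnfrsf12a*, *Tnfrsf11a* and *Tnfrsf21* are highest in replicates 2 and 4, *Tnfrsf17* and *Tnfrsf13c* in replicates 1 and 2, and 4 receptors are at 0 in all libraries.

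Ligands of the receptors were mostly low in the same libraries, with a median percentile of 19.5 over 11 genes, of which 4 were above 3 counts in all libraries. *Fasl*, which encodes FAS ligand, was the highest, with 433, 211, 487 and 134 TPM (mean 317 ± 171, SD, n = 4, percentile 96.3). It was higher than *Fas*, its receptor, in every library, and *Fas* was at most 34.2 TPM. *Tnfsf10*, which encodes TRAIL, had 117, 60.6, 35.4 and 33.5 TPM (percentile 76.6). *Tnf*, the ligand of *Tnfrsf1a* and *Tnfrsf1b*, had 17.9, 17.1, 15.3 and 37.6 TPM (percentile 48.4) and was highest in replicate 4. *Ltb*, whose product joins lymphotoxin α in the ligand of the lymphotoxin β receptor, had 86.3, 14.0, 65.2 and 55.0 TPM.
For the costimulatory receptors, *Cd70*, the ligand of CD27, had 0 counts in all 4 libraries. *Tnfsf18*, the ligand of GITR, had 75, 1, 32 and 12 counts. *Tnfsf4*, the ligand of OX40, had 24 counts in replicate 1 and 0 in the others, and *Tnfsf9*, the ligand of 4-1BB, had at most 4. *Tnfsf15*, which encodes the DR3 ligand TL1A, had 37 counts in replicate 2 and 0 in the others. *Tnfsf14*, which encodes the HVEM ligand LIGHT, had 148, 3, 219 and 96 counts and was thus lowest in replicate 2, as *Tnfrsf14* itself was. Of the HVEM partners outside the TNF superfamily, *Cd160* had 217, 46.4, 109 and 59.7 TPM (percentile 87.6) and *Btla* had 23, 62, 40 and 0 counts. Between the experiments, 0 of the 6 ligands that passed the filter had an adjusted p under 0.05, and 0 had an unadjusted p under 0.05.

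**Figure D5:**
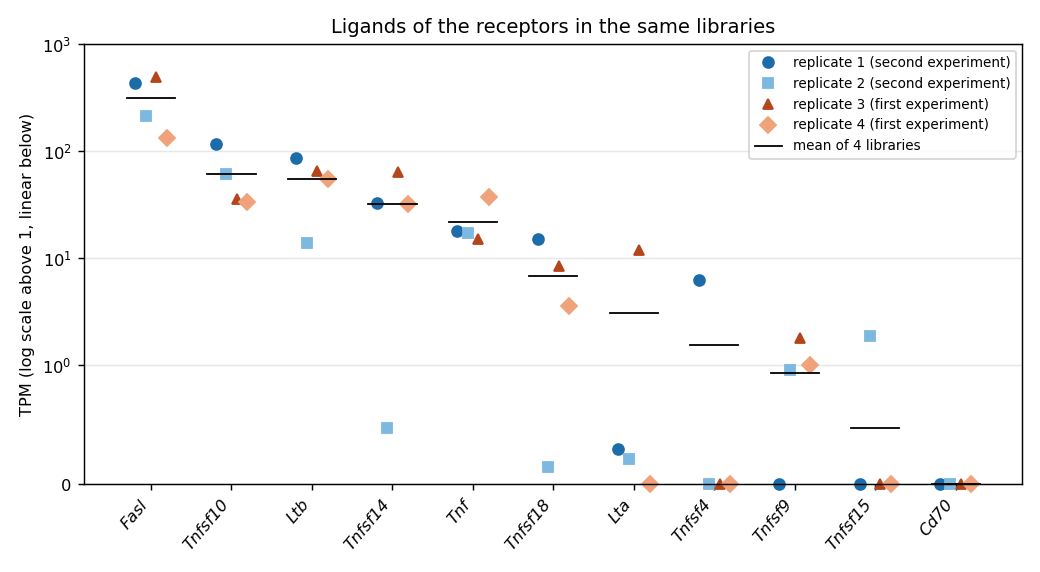
Level in TPM (vertical axis, logarithmic above 1 and linear below) of 11 TNF superfamily ligands in each library (points) with the mean of the 4 (line). *Fasl* lies between 134 and 487 TPM in every library, and *Cd70* is at 0 in all 4.

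Genes that act below the receptors were detected throughout. All 9 TRAF adaptors and ubiquitin ligases were above 3 counts in every library, with a median percentile of 79.6 and 5 of 9 at or above percentile 75. *Tnfaip3*, which encodes A20, the NF-κB-induced inhibitor of this signalling, was the highest with 1401, 727, 1245 and 545 TPM (mean 980 ± 409, percentile 98.9), and its highest and lowest CPM differed 2.30-fold. *Birc3*, which encodes cIAP2, had 465, 152, 167 and 61.9 TPM, and *Traf1* had 66.2, 37.3, 107 and 65.5 TPM. All 9 genes of death domain signalling were also above 3 counts in every library, with a median percentile of 47.2 and 2 of 9 at or above percentile 75. *Casp8*, the initiator caspase below FAS and the TRAIL receptor, had 243, 198, 157 and 142 TPM (percentile 93.4), and *Fadd*, the adaptor that recruits it, had 57.5, 91.6, 65.3 and 33.9 TPM. *Tradd*, the adaptor of TNFR1 and DR3, was low, with 5, 48, 6 and 30 counts, and was higher in replicates 2 and 4. The median ratio of the highest to the lowest library was 4.02 for the TRAF list and 2.89 for the death domain list, where that of all genes was 4.80. In the test between experiments 0 of 9 genes of either list had an adjusted p under 0.05.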

How the data were processed

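RNA-seq of sorted SI-LP NKT cells was analysed in 4 libraries. The authors deposited raw counts per gene, made according to the table's header with featureCounts 1.6.4 on primary alignments of read pairs to RefSeq exons, with no strand option. The methods name HISAT2 and GRCm39, the submitters' processing notes name RSEM, Bowtie2 and GRCm38.p6, and the deposited positions are those of GRCm38. Gene lengths (another deposited column) are no measurement and gave TPM. Of 6 library columns, 2 matched no sample label and were not used.

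CPM used TMM factors. Genes with at least 10 counts in 2 libraries were tested between experiments by quasi-likelihood in edgeR, adjusted after Benjamini and Hochberg (checked on simulated data). The prior count was 2 for log2 differences. Nothing states that the samples of an experiment came from separate mice, so p-values judge the difference between experiments only against the spread between these samples. Alternatives were other scalings and filters, DESeq2, CPM in place of TPM, and leaving out each replicate. The 10 members and all lists were chosen with earlier results of these data known, and all 10 members are named, as are genes of other lists above 3 counts in every library or needed as ligand or adaptor. Marker genes and receptors that moved with them are named as examples, chosen after their values were seen. Intervals are at 95%. Fits ran in R 4.3.3 with DESeq2 1.42.0, limma 3.58.1 and edgeR 4.0.16. Levels and figures were made in Python 3.11.15 with scipy 1.17.1, pandas 2.3.3, matplotlib 3.10.9 and numpy 2.4.6.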

Additional observations from a re-analysis of the deposited data

Results flagged for a closer look

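For 58 values (CPM of the members and of each listed ligand, receptor and signalling gene above 3 counts in any library, ratios and marker shares), the highest or lowest of the 4 libraries was compared with the others by Dixon's ratio of gap to range at its 95% critical value for 4 samples. In 9 of them 1 library stood out. Chance gives about 1 in 20 for independent, normally distributed values. The 58 values come from the same 4 libraries and need not be normal, so the 9 cannot be set against that rate. It also does not hold for genes at or near 0 counts in the other libraries. For 3 of the 9 (*Lta*, *Tnfsf4* and *Tnfsf15*) every other library had 3 counts or fewer. *Tnfrsf4* had 7.07 CPM in replicate 1 and 0 to 0.383 CPM in the others. Its ligand *Tnfsf4* had 3.33 CPM in replicate 1 and 0 in the others. *Tnfsf15*, the ligand of DR3, had 3.54 CPM in replicate 2 and 0 in the others, and *Lta*, which encodes lymphotoxin α, had 6.70 CPM in replicate 3 and 0 to 0.139 CPM in the others. *Tnf* had 25.1 CPM in replicate 4 and 9.19 to 10.3 CPM in the others. *Relt* had 45.4 CPM in replicate 4 and 10.4 to 12.5 CPM in the others. *Tnfrsf19* had 8.28 CPM in replicate 4 and 0 to 1.25 CPM in the others, and *Tnfrsf23*, a decoy receptor of TRAIL in mice, had 10.7 CPM in replicate 2 and 0.446 to 1.004 CPM in the others. Exons of *Tnfrsf23* overlap those of *E230032D23Rik* on the other strand over 4.9% of their length, and counting took no account of strand. *E230032D23Rik* had 1, 38, 2 and 0 counts in replicates 1 to 4. *Daxx*, which encodes a protein that binds FAS, was lowest in replicate 1, with 6.10 CPM against 24.2 to 27.7 CPM.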

How the results depend on the processing

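Under every alternative run, 0 members had an adjusted p under 0.05 between the experiments. The number of genes called, 0 in the fit reported, was 41 with DESeq2, 60 without a filter on low counts and from 0 to 7 with 1 replicate left out. The direction of members' differences depended on single libraries: with 1 replicate left out, where the lone library of an experiment is assumed to vary like the others, the log2 fold change ran from -2.50 to 0.52 for *Tnfrsf1b*, -0.18 to 1.70 for *Tnfrsf9*, -1.24 to 0.12 for *Tnfrsf18*, -9.89 to 0.50 for *Tnfrsf25*, -6.81 to 1.32 for *Tnfrsf14*, -0.088 to 2.08 for *Tnfrsf10b* and -1.41 to 1.93 for *Cd27*. By CPM in place of TPM, that is without length correction, the median percentile of the members was 58.2, the ratio of *Tnfrsf1b* to *Tnfrsf1a* was 3.52 and those of *Tnfrsf18* to *Tnfrsf1a* and *Tnfrsf1b*, alternatives chosen after seeing the data, were 1.26 and 0.360, so that the order of *Tnfrsf18* and *Tnfrsf1b* (1.72 per length) reversed. The median ratio of highest to lowest library ran from 3.10 to 7.17 with 1 replicate left out. Leaving out replicate 1 moved the mean CPM of *Tnfrsf4* from 1.86 to 0.128 and that of *Tnfrsf14* from 15.0 to 8.83, and leaving out replicate 2 moved that of *Tnfrsf10b* from 29.9 to 17.8. No other alternative mean of a member differed by more than 1.5 times. The selection of replicates 1 and 3 was also chosen after seeing the data. No paired analysis was possible because the samples form a single group, in which no replicate number occurs more than once. Counts of 4 or fewer, as for *Tnfrsf4* outside replicate 1, limit those values to bounds.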
